A study of Sorghum bicolor with 6 samples.

Results

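Among 34129 gene models counted in sorghum (Sorghum bicolor) leaves, 84 had no count in any of the 3 empty vector libraries and 10 or more counts in each of the 3 libraries from plants overexpressing SbGhd7 (SbGhd7 OE). They made up 0.246% of all gene models and are called OE-only genes here, a name for their counts and not for a tissue or a function. They were chosen by the counts of both groups, so their difference between the groups is described and not tested. The opposite pattern, no count in any SbGhd7 OE library and 10 or more in each empty vector library, was found in 32 gene models (0.0938%).

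Leaf RNA came from 4-week-old plants in both groups, with 3 libraries of the empty vector control and 3 of SbGhd7 OE. The labels give no sorghum line, no promoter for the transgene, no number of transformation events and no hour of harvest. Nor do they tie each library to a plant of its own, so p-values measure the spread between libraries alone, and this may be technical. The study compared the leaf transcriptomes of the control and the overexpression plants.

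SbGhd7 encodes a protein with a CCT domain, a segment shared by several plant regulators of transcription, and belongs to the pathway by which grasses time flowering by day length. In rice, its relative Ghd7 delays flowering in long days and lowers the RNA of the activator Ehd1 and of florigen genes. A plant genome holds many genes that are silent in a given organ and are read only in other organs, stages or conditions. In RNA-seq a value of 0 does not separate a silent gene from one whose RNA lies below the depth of the library.

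The overexpressed gene followed its labels. The SbGhd7 gene model (Sobic.006G004400) had control values of 35, 60 and 35 counts, listed here as everywhere from replicate 1 to 3, and SbGhd7 OE values of 17295, 10339 and 20367 counts. Its log2 fold change was 8.75 (SE 0.454, n = 3 libraries per group; edgeR's quasi-likelihood test with Benjamini-Hochberg adjustment, adjusted p = 1.04e-05), and an exact two-sided permutation test gave p = 0.1, the smallest that 3 against 3 libraries allow. As a check of the tissue, 5 gene models for leaf photosynthesis (RBCS, PEPC, PPDK, CA1 and NADP-ME) had between 6286 and 495110 counts in every library, and the axillary bud gene model Tb1 had 0 in all 6. Their levels were not alike in the groups. In SbGhd7 OE, CA1 stood at 20.5-fold, PEPC at 4.39-fold, PPDK at 2.25-fold and NADP-ME at 0.502-fold of the control level, each called by edgeR. RBCS stood at 0.762-fold and was not called (edgeR adjusted p = 0.154). These names, like that of SbGhd7, were attached to the identifiers from general knowledge, since no table used here pairs names with them.

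Library totals ranged from 30199655 to 35830080 counts in the controls and from 27844391 to 30836215 counts in SbGhd7 OE. The controls, in which the OE-only genes had no count, were thus not the shallower group as a whole. A count of 0 allows up to 3 counts in a library, which is between 0.0812 and 0.0971 CPM (counts scaled to a common library total after TMM normalisation) in the controls. In leaf tissue, fewer cells of a type that reads a gene and less RNA per cell cannot be told apart.

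The OE-only genes were the upper end of a wide range among gene models without control counts. Of 9229 gene models at 0 in all 3 controls, 7518 were also at 0 in all SbGhd7 OE libraries, 940 had a count in 1 of these libraries, 449 in 2 and 322 in all 3. Of the 322, 238 fell below 10 counts in at least 1 SbGhd7 OE library, which left the 84. Another 181 gene models without control counts reached 10 counts in a single SbGhd7 OE library, 33 of them in replicate 1, 79 in replicate 2 and 69 in replicate 3.

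The number of OE-only genes depended on one control library more than on the others. Without empty vector replicate 3 the rule found 141 gene models, against 113 without replicate 1 and 110 without replicate 2. The 57 gene models that this control library alone kept out had counts there and in no other control, and 7 of them had 10 or more. With SbGhd7 OE replicate 1, 2 or 3 left out, the rule found 122, 97 and 109 gene models. Every one of these sets held all 84, which was fixed in advance, since leaving out a library only drops a condition of the rule.

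The OE-only genes were read at low levels. Their mean level over the 3 SbGhd7 OE libraries ranged from 0.425 to 9.06 CPM, with a median of 1.19 CPM. The 19445 gene models with 10 or more counts in each SbGhd7 OE library had a median of 15.2 CPM. A low level was not particular to the OE-only genes. The 32 gene models of the opposite pattern had a median of 1.05 CPM in the controls, against 14.7 CPM for all with 10 or more counts in each control. Of the 84, 49 reached a mean of 1 CPM, 19 reached 2 CPM and only 2 reached 5 CPM. In counts, the medians over the 84 were 23, 35 and 35 in replicates 1, 2 and 3, and the highest values were 199, 607 and 153. No member had 100 counts in every SbGhd7 OE library, 8 had 50 or more in each, and 40 had 20 or more in each. Together they took between 0.0121% and 0.0162% of the counts of a SbGhd7 OE library.

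**Figure D1:**
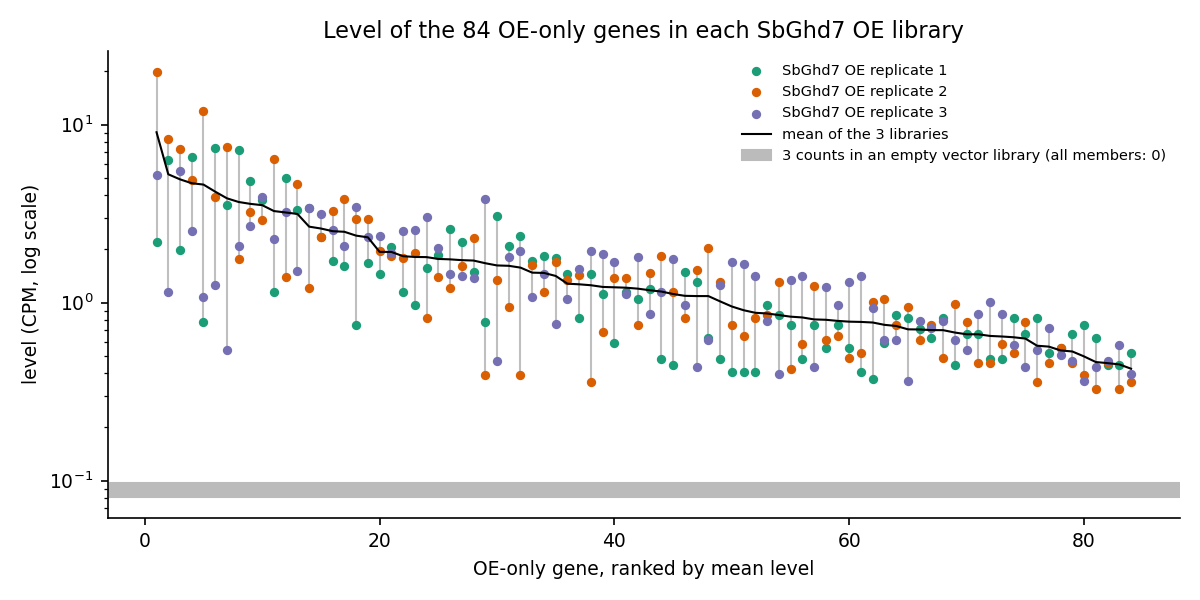
Level of each OE-only gene in the 3 SbGhd7 OE libraries (points, CPM on a log scale), ranked by the mean of the 3 (black line), with a grey line joining the 3 values of a gene. The grey band marks 3 counts in an empty vector library (0.0812 to 0.0971 CPM), where every member had 0, and all points lie above it.

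The identifiers of these genes are paired with no name, function or position in the sources used here, so no roles are given. The highest mean belonged to Sobic.005G175900, with SbGhd7 OE values of 59, 607 and 145 counts (9.06 ± 9.39 CPM, SD, n = 3). Replicate 2 held most of this, and without it the mean was 3.71 CPM. Sobic.005G212700 followed with 171, 254 and 32 counts (5.26 ± 3.68 CPM), low in replicate 3. Sobic.007G045100 had 53, 224 and 153 counts (4.92 ± 2.71 CPM), low in replicate 1.

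The next members differed in steadiness. Sobic.003G326400 had 178, 151 and 70 counts (4.68 ± 2.06 CPM), a smaller spread for its level than in the 3 before it. In Sobic.005G226100, with 21, 367 and 30 counts (4.60 ± 6.36 CPM), 86.5% of the scaled signal lay in replicate 2, and without it the mean was 0.931 CPM. Sobic.006G181300 had 199, 121 and 35 counts (4.20 ± 3.08 CPM), with replicate 1 highest and replicate 3 lowest.

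The last of the 10 members with the highest means differed in how evenly the libraries shared the signal. Sobic.002G030575 had 95, 230 and 15 counts (3.85 ± 3.48 CPM), highest in replicate 2 and low in replicate 3. Sobic.002G036900 had 193, 54 and 58 counts (3.67 ± 3.03 CPM), with replicate 1 well above the others. Sobic.003G431100 had 130, 99 and 75 counts (3.59 ± 1.11 CPM). Sobic.001G544400, with 101, 89 and 109 counts (3.53 ± 0.552 CPM), was the only one of the 10 whose highest library stood less than 1.5 times above its lowest.

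Against a floor of 3 counts over the whole control group, the OE-only genes stood between at least 13.9-fold and at least 313.8-fold higher in SbGhd7 OE, with a median bound of 39.1-fold. The rule itself put all 84 at 10-fold or more, since it chose them by these same counts, so the low end is no result. For 13 genes the bound was 100-fold or more. It rested on 1 library in the most uneven genes. Sobic.005G175900 was at least 313.8-fold higher, but at least 123.3-fold with SbGhd7 OE replicate 2 left out. Sobic.005G226100 was at least 161.7-fold higher, but at least 30.8-fold without that replicate. Sobic.001G544400 was at least 115.7-fold higher, and between at least 108.9-fold and at least 126.9-fold with 1 SbGhd7 OE library left out. These bounds cover counting error only and take each count as 1 fragment, while the value 2 was between 2.91 and 3.57 times as common as the value 1 in every library. At 2 counts per fragment the floor would be 6 counts, and the bounds would run from 6.96-fold to 156.9-fold with a median of 19.5-fold.

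In the test across all genes, 82 of the 84 passed the filter on low counts, and those that did not, Sobic.003G313100 and Sobic.006G089700, had 10 counts in their lowest library. All 82 were called higher by edgeR, where 28% of the 20820 tested genes were called higher and 53.3% were called in either direction. Because the rule used the same contrast, nothing is read from this count.

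Most OE-only genes had at least a 2-fold range between the 3 SbGhd7 OE libraries. The highest library stood 2.21 times above the lowest in the median gene, with quartiles of 1.63 and 3.44 and a range from 1.05 to 15.3. The ratio was 2 or more in 48 genes (57.1%) and 5 or more in 10 genes (11.9%). Among 7420 other gene models in the same range of mean CPM, each with 10 or more counts in every SbGhd7 OE library, the median ratio was 1.58 and 26.7% had a ratio of 2 or more. The 32 gene models of the opposite pattern had a median ratio of 2.34 across the controls, so a wide spread was also found there.

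The ratio varied with level in both sets, so the spread was also set out by quartile of mean CPM. Up to 0.747 CPM the medians were 1.67 for 21 OE-only genes and 1.72 for 561 others, and here the minimum of 10 counts limits the ratio in both. From there to 1.19 CPM they were 2.91 and 1.91. Between 1.19 and 1.85 CPM they were 2.20 and 1.82. Above 1.85 CPM they were 3.05 for 21 OE-only genes and 1.49 for 4893 others. The OE-only genes thus had the higher median ratio in 3 of the 4 ranges. The highest range is wide, up to 9.06 CPM, and only 2 OE-only genes reached 5 CPM. Levels were not matched within a range, so part of this difference may come from level. Among the other gene models that edgeR called higher, the medians in the 4 ranges were 1.58, 2.01, 1.82 and 1.56, also below those of the OE-only genes.

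**Figure D2:**
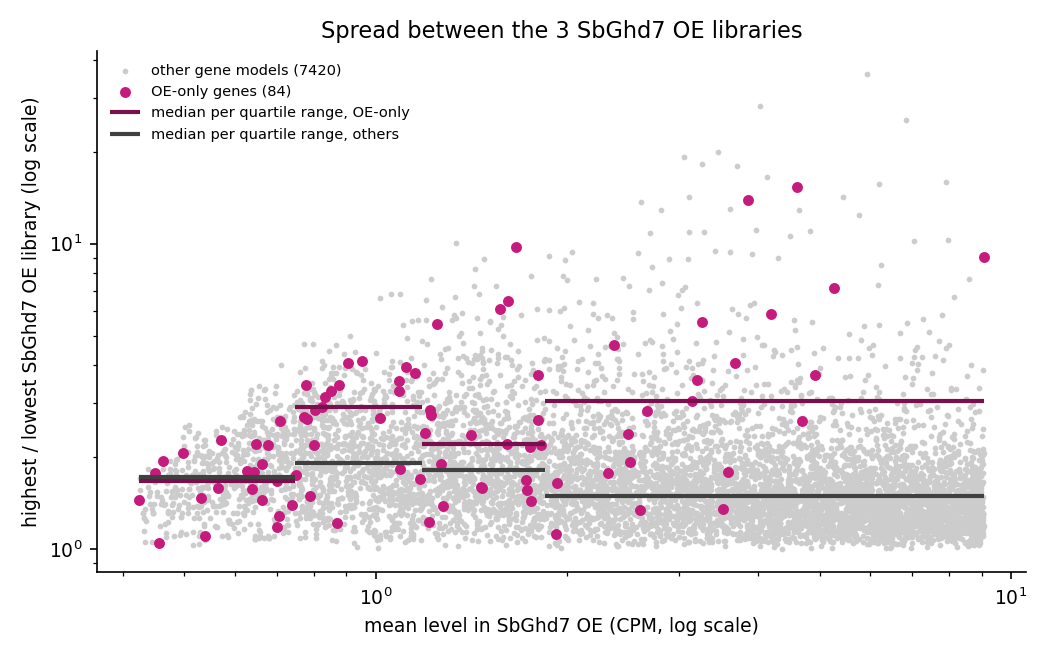
Ratio of the highest to the lowest SbGhd7 OE library against mean CPM in SbGhd7 OE (both on log scales) for the 84 OE-only genes (pink) and 7420 other gene models with 10 or more counts in each library (grey). Horizontal lines give the median in each quartile range of the OE-only genes, which is 1.67 against 1.72 in the lowest range and 3.05 against 1.49 in the highest. Levels were not matched within a range.

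The most uneven member was Sobic.005G226100, whose replicate 2 stood 15.3 times above replicate 1. Sobic.002G030575 followed with a ratio of 13.8 between replicates 2 and 3. Sobic.001G422300 had 21, 12 and 106 counts, a ratio of 9.78 with replicate 3 highest, and its mean of 1.66 CPM was 0.586 CPM without that library. The ratios of Sobic.005G175900 and Sobic.005G212700 were 9.01 and 7.17, both with replicate 2 highest. The highest library was therefore replicate 2 in 4 of these 5 genes and replicate 3 in Sobic.001G422300.

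At the other end, 5 members gave nearly the same value in each library. Sobic.009G098150 had 12, 14 and 13 counts (0.457 ± 0.0113 CPM, a ratio of 1.05). Sobic.003G230100 had 15, 17 and 14 counts, with a ratio of 1.10. These 2 genes lay near the minimum of 10 counts, while the next one did not. Sobic.004G283500 had 55, 56 and 53 counts (1.93 ± 0.111 CPM, a ratio of 1.12). Sobic.001G267701 had 17, 23 and 20 counts with a ratio of 1.19, and Sobic.001G428900 had 26, 26 and 22 counts with a ratio of 1.22.

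The rule required a minimum count in every SbGhd7 OE library, so a set carried by 1 library alone was excluded in advance. Replicate 2 held the most member counts, 5002 (0.0162% of its total). Replicate 1 held 3492 (0.0121%) and replicate 3 held 3503 (0.0126%). By gene, the highest library varied. Replicate 1 was highest in 27 OE-only genes, replicate 2 in 26 and replicate 3 in 31, against 29.7%, 38.2% and 32.1% of the 7420 others. In 30 members more than 50% of the scaled signal lay in 1 library, and in 2 members more than 75% did. SbGhd7 itself was highest in replicate 3 and lowest in replicate 2. The same order was seen in 15 OE-only genes (17.9%) and in 17.1% of the others, a like share in both. SbGhd7 OE replicate 2 (-0.696) stood apart from replicates 1 and 3 (0.289 and 0.458) on the second principal component of all tested genes, which held 7.09% of the variance. Empty vector replicate 3 (-0.400) lay on the same side, apart from empty vector replicates 1 and 2 (0.187 and 0.162). With SbGhd7 OE replicate 2 left out, the median ratio between replicates 1 and 3 was 1.61, against 1.59 and 1.58 without replicate 1 or 3.

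By the chromosome number in their identifiers, the OE-only genes were spread over all 10 chromosomes. Chromosome 2 held 15 (17.9% of the 84, against 12.9% of all gene models), chromosome 1 held 14 (16.7% against 16.8%), and chromosomes 3 and 6 held 11 each (13.1% against 13.7% and 8.65%). The rest were 8 on chromosome 4, 6 on chromosome 5, 5 on chromosome 7, 3 on chromosome 8, 5 on chromosome 9 and 6 on chromosome 10. None of the 102 gene models with no chromosome number was a member. Per gene model the share ran from 0.148% on chromosome 8 to 0.373% on chromosome 6. No chromosome thus lacked OE-only genes. With the identifier order of each chromosome cut into 4 equal stretches, they held 18, 18, 21 and 27 members from the lowest numbers to the highest. The nearest OE-only gene to SbGhd7 was Sobic.006G022301, which lay 186 gene models away, so no member was found beside the native copy.

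**Figure D3:**
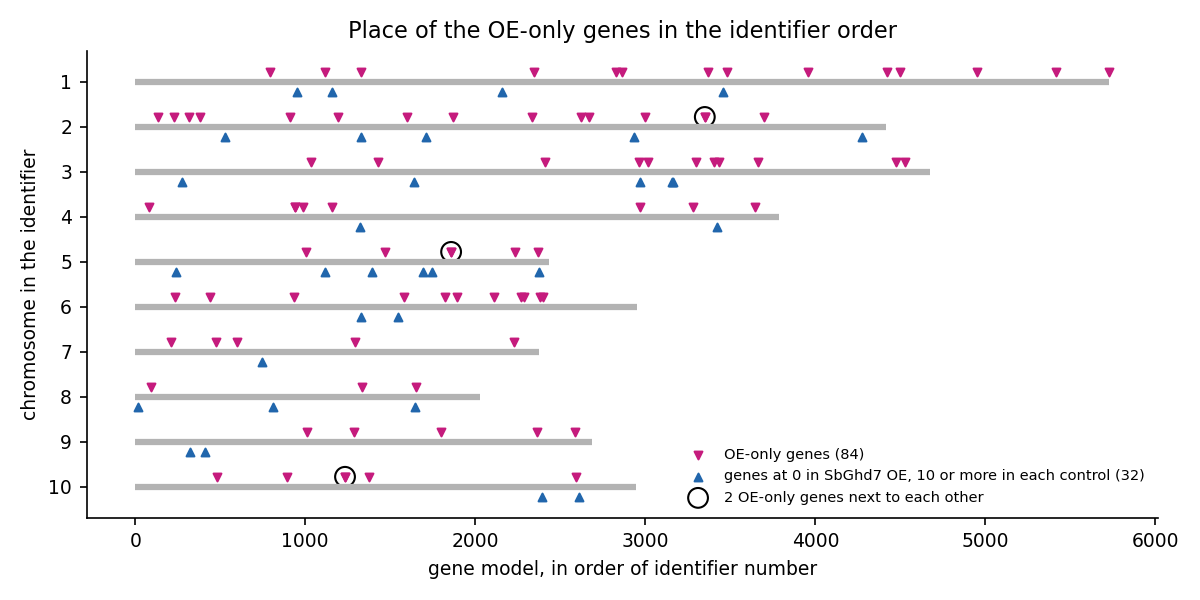
Place of the 84 OE-only genes (pink) and of the 32 gene models of the opposite pattern (blue) among all gene models of each chromosome, in the order of their identifier numbers. Circles mark the 3 places where 2 OE-only genes are next to each other, on chromosomes 2, 5 and 10.

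Most OE-only genes had no other OE-only gene beside them. Of the 84, 6 (7.14%) were directly beside another OE-only gene in identifier order, in 3 pairs, and no run was longer than 2. For comparison, OE-only genes made up 0.246% of all gene models. Whether they lay closer together than scattered genes would was not tested. Another pair had 1 gene model between its members, and allowing up to 10 gene models between members added none. Between one OE-only gene and the next on the same chromosome the median step was 301 gene models, and 4 of 74 steps were of 10 or less. Of the 32 genes of the opposite pattern, 2 were next to each other (6.25%, against 7.14% of the OE-only genes). Genes of that pattern made up 0.0938% of all gene models. With the minimum dropped to any count in all 3 SbGhd7 OE libraries, 9 OE-only genes had a neighbour of that kind. The 3 added were Sobic.001G267701, Sobic.002G030575 and Sobic.005G137200.

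The pair on chromosome 5, Sobic.005G175800 and Sobic.005G175900, held the most counts. Sobic.005G175800 had 46, 101 and 71 counts (2.52 ± 0.790 CPM), beside the 59, 607 and 145 counts of its neighbour. Both were highest in replicate 2 and lowest in replicate 1. The gene models after them were read in the controls as well. Sobic.005G176000 went from 478, 551 and 619 control counts to 898, 1073 and 922 in SbGhd7 OE, a log2 fold change of 1.03 (SE 0.112, edgeR adjusted p = 1.63e-04), and Sobic.005G176100 had 8, 9 and 13 against 77, 152 and 123, a log2 fold change of 3.74 (SE 0.358, edgeR adjusted p = 8.54e-05). On the other side, Sobic.005G175700 had a single count in the 6 libraries, and Sobic.005G175600 did not pass the test (log2 fold change 0.22, edgeR adjusted p = 0.512). Beyond them, Sobic.005G175500 fell from 16547, 17166 and 20010 counts to 6741, 11137 and 8847 (log2 fold change -0.803, SE 0.159, edgeR adjusted p = 0.00321).

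The pair on chromosome 2 was lower. Sobic.002G327201 had 15, 19 and 34 counts (0.800 ± 0.369 CPM) and Sobic.002G327300 had 15, 15 and 36 counts (0.781 ± 0.449 CPM), with replicate 3 highest in both. Directly before the pair, Sobic.002G327100 was not called (log2 fold change 1.71, SE 0.650, edgeR adjusted p = 0.0532). Directly after it, Sobic.002G327400 had 3 counts, all in SbGhd7 OE replicate 3. Nearby, Sobic.002G327500 had 79, 106 and 65 control counts and 431, 236 and 458 counts in SbGhd7 OE (log2 fold change 2.38, SE 0.357, edgeR adjusted p = 8.68e-04). Sobic.002G327600 had no control count and 4, 9 and 13 counts in SbGhd7 OE, the same direction below the minimum of 10. Sobic.002G326900, 3 gene models before the pair, fell from 46, 38 and 56 counts to 17, 14 and 16 (log2 fold change -1.34, SE 0.369, edgeR adjusted p = 0.0151).

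The pair on chromosome 10 also had neighbours that rose, but not directly beside it. Sobic.010G117700 had 22, 16 and 16 counts (0.638 ± 0.158 CPM) and Sobic.010G117800 had 31, 55 and 70 counts (1.82 ± 0.686 CPM). Their libraries were in different orders, the first highest in replicate 1 and the second in replicate 3. Directly before the pair, Sobic.010G117600 had 6, 2 and 0 control counts and 4, 15 and 2 counts in SbGhd7 OE and was not tested. Directly after it, Sobic.010G117850 had no count in any library. Sobic.010G117900, 2 gene models further on, had 0, 0 and 18 control counts and 289, 315 and 104 counts in SbGhd7 OE (log2 fold change 5.52, SE 1.03, edgeR adjusted p = 0.00381). It missed the rule only through the 18 counts in empty vector replicate 3. Sobic.010G117500 rose from 5, 5 and 2 counts to 27, 29 and 17 (log2 fold change 2.76, SE 0.579, edgeR adjusted p = 0.00428).

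The near pair on chromosome 4 stood apart from read neighbours on one side. Sobic.004G090000 had 30, 21 and 52 counts (1.22 ± 0.603 CPM) and Sobic.004G090200 had 22, 11 and 15 counts. The gene model between them and the 3 after them had no count in any of the 6 libraries. Before them, Sobic.004G089700 had 160, 170 and 213 control counts and 137, 172 and 140 counts in SbGhd7 OE and did not pass the test (log2 fold change -0.06, edgeR adjusted p = 0.795). Whether the members of a pair are related copies that share reads was not tested.

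**Figure D4:**
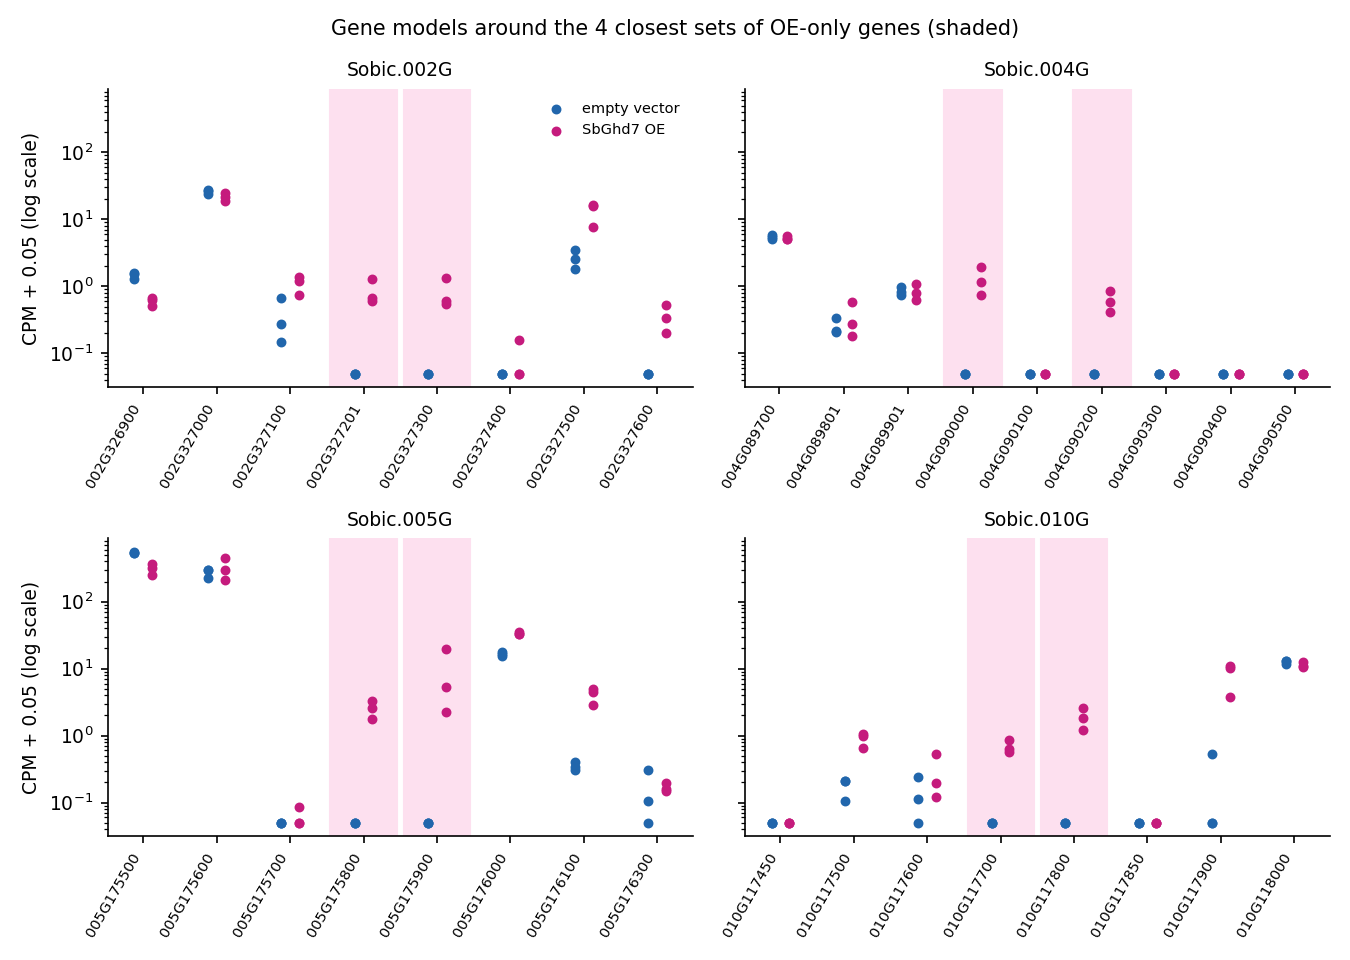
CPM + 0.05 (log scale) of the OE-only genes of the 4 closest sets (shaded) and of the 3 gene models on each side, for each empty vector library (blue) and each SbGhd7 OE library (pink). All shaded genes lie at 0 in the controls, and rising neighbours such as Sobic.005G176100 (log2 fold change 3.74) and Sobic.010G117900 (5.52) stand beside gene models with no count.

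Over all 84 members, how the share of neighbours called higher compared with the background depended on the base. It was near the background over all gene models and above it among tested ones. Of 161 gene models directly beside an OE-only gene, 30 (18.6%) were called higher by edgeR and 19 (11.8%) were called lower. Over all 34129 gene models the shares were 17.1% and 15.4%. Within 3 gene models on each side 18.8% were called higher, and within 5 gene models 20.9%. With the 85 tested neighbours alone as the base, 35.3% were called higher, against 28% of all tested genes. The median log2 fold change of these 85 was 0.18, against -0.0042 over all tested genes. Among the 161, 8 were called higher by 8-fold or more, against 824 of the 34129.

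Many of the neighbours had no counts. In all 3 controls 55 of the 161 (34.2%) were at 0, against 27.0% of all gene models. In all 6 libraries 43 (26.7%) were at 0, against 22.0%. Neighbours were not chosen at random and adjacent gene models may share reads, so these shares are a description.

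**Figure D5:**
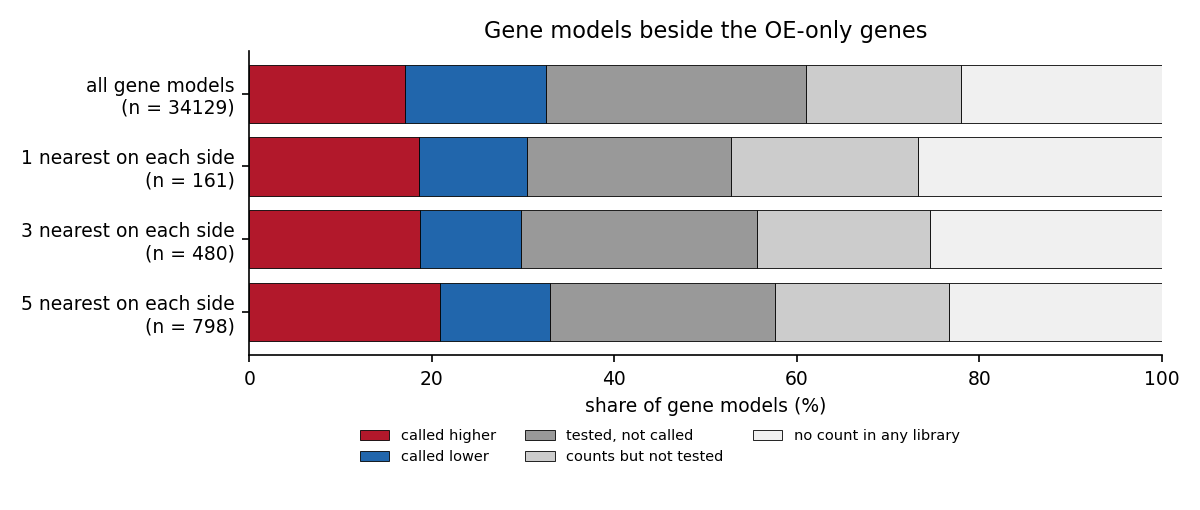
Share of gene models (%) that edgeR called higher or lower in SbGhd7 OE, that were tested and not called, that had counts but were not tested, or that had no count, for all 34129 gene models and for the 1, 3 and 5 nearest on each side of the OE-only genes. The share called higher is 17.1% for all and 18.6%, 18.8% and 20.9% beside the OE-only genes.

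Identifiers whose gene number does not end in 00 made up 10 of the 84 OE-only genes (11.9%). Their share was 15.2% over all gene models and 12.4% over the 7420 others of like level. In the opposite pattern it was 11 of 32 (34.4%).

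The threshold cut through a continuous range of values. Just inside it, 5 members had 10 counts in their lowest SbGhd7 OE library and 8 had 11. Of these 5, Sobic.003G313100 had 12, 10 and 16 counts, Sobic.006G089700 had 17, 10 and 12, and Sobic.001G319600 had 20, 12 and 10. Sobic.007G020700 had 22, 29 and 10 counts and Sobic.007G057500 had 10, 31 and 26, so the lowest library was not the same one in all 5. Just outside it, 7 gene models without control counts had a lowest value of 9. The highest of these on average was Sobic.002G030650, with 32, 97 and 9 counts in SbGhd7 OE. It is the next gene model after the member Sobic.002G030575, and both were highest in replicate 2 and lowest in replicate 3. Sobic.003G246900 followed with 19, 66 and 9 counts.

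On the side of the controls, 8 gene models with 10 or more counts in each SbGhd7 OE library had a single control count. Sobic.005G216200 had 1 count in empty vector replicate 2 and 128, 91 and 107 counts in SbGhd7 OE. Sobic.010G036100 had 1 count in empty vector replicate 1 and 62, 201 and 69 counts in SbGhd7 OE. Both had more SbGhd7 OE counts than most members. With up to 3 counts allowed in each control library, 77 gene models joined the 84.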

How the data were processed

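RNA was sequenced from leaves in 6 libraries, 3 per group. Per the labels' protocols, TRIzol extraction and a DNase I step preceded preparation with a NEBNext Ultra kit. The submitters' processing notes list HISAT2 2.2.1, StringTie 2.2.1 and DESeq2 2.11.40.7 without roles. Build, strandedness and filtering: not given in the sources used here. In each file, the authors deposited 1 whole number per gene model and library, treated here as estimated counts. Rounding changed none. The value 2 was between 2.91 and 3.57 times as common as the value 1, which reads counted once would not give, so a value may not be 1 fragment. Without a known strand setting, overlapping genes could not be told apart.

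OE-only genes were taken by their counts, 0 in each control and 10 or more in each SbGhd7 OE library. The members, gene lists and rules for named genes were chosen with earlier results of these data known. Named were the 10 members with the highest mean CPM, the 5 with the largest and the 5 with the smallest ratio between libraries, all adjacent members and those at the threshold; the near pair and all gene models around the pairs were added after values were seen. Neighbours were defined by the order of identifiers in the files. The reference table (32945 genes) matched 0 of 34129 identifiers. The background came from edgeR 4.0.16 (filterByExpr, TMM, robust quasi-likelihood F-test, Benjamini-Hochberg, adjusted p under 0.05; R 4.3.3), checked on simulated data. The SE is the log2 fold change divided by the square root of F. CPM used the TMM-scaled library totals. The permutation test used log2(CPM + 0.5). DESeq2 1.42.0 was an alternative.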

Additional observations from a re-analysis of the deposited data

How the results depend on the processing

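The number of OE-only genes follows its thresholds. With a minimum of 5, 20 or 50 counts in each SbGhd7 OE library it was 146, 40 and 8, with 10 counts in at least 2 of these libraries 160, with up to 3 counts in each control library 161, and with 0.5 CPM in each SbGhd7 OE library 51. For the SbGhd7 OE libraries alone, the minimum of 20 equals halved values with a minimum of 10. The control counts were held at 0 without halving. Leaving out 1 library gave 97 to 141. Genes of the opposite pattern numbered between 5 and 75 under these settings and were fewer than the OE-only genes in each. The 6 adjacent members became 2 with the minimum of 20 and 10 with up to 3 control counts, and 6 to 14 when 1 library was left out of the rule, a setting chosen after seeing the data. Expressed as the coefficient of variation, the median spread was 0.427, and with 1 SbGhd7 OE library left out the median ratio was 1.58 to 1.61, since a ratio over 2 libraries is smaller by construction. Among tested neighbours alone, 35.3% were called higher.

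A further limit of 1 on the size of the log2 fold change left 5798 of the 11087 called genes, and the other 13 settings stayed within 1.5 times that count. SbGhd7 was called in all 13 of its settings. Replicate numbers did not pair the libraries: deviations of same-numbered libraries correlated at -0.00325, -0.0724 and -0.146, and no control library correlated best with its own number. With the replicate number as a block, 9848 genes were called, SbGhd7 had a log2 fold change of 8.70 and 16.8% of the neighbours were called higher. With 1 SbGhd7 OE library left out, the mean CPM of 6 of the 21 members named for level, spread or adjacency moved by over 1.5 times: Sobic.005G226100 to 0.931, Sobic.005G175900 to 3.71 and Sobic.002G030575 to 2.04 without replicate 2, Sobic.006G181300 to 2.60 and Sobic.002G036900 to 1.92 without replicate 1, and Sobic.001G422300 to 0.586 without replicate 3. Scaling moved none of the 21 by that much. Depth limits most the 21 members whose lowest count was 10 to 12.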

Other observations

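The 32 gene models of the opposite pattern had neighbours of a different make-up, given here as values without a test. Of 62 gene models directly beside them, 20 (32.3%) were called lower in SbGhd7 OE by edgeR and 6 (9.68%) were called higher, against 15.4% and 17.1% of all gene models. None of them lay directly beside an OE-only gene. The closest was Sobic.005G226350, which lay 4 gene models from the OE-only gene Sobic.005G226100 and had control counts of 14, 19 and 17 against 0 in each SbGhd7 OE library.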
